A study of Mus musculus with 12 samples.

Results

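The nuclear-encoded genes of the mitochondrial respiratory chain and the ATP synthase were followed in mouse neuroendocrine thyroid carcinomas. They were found by symbol, as the rows that begin with Nduf, Uqcr or Atp5, that begin with Cox4 to Cox8, or that are named Sdha, Sdhb, Sdhc or Sdhd. This gave 90 of the 23284 genes in the count tables: 36 subunits of complex I, 4 of complex II, 8 of complex III, 18 of complex IV and 15 of complex V, and 9 genes that share a symbol stem but encode no subunit. Of the 90 genes, 88 had enough reads to be tested, and Cox7b2 and Cox8c did not.

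The respiratory chain carries electrons from NADH, which enter at complex I, and from succinate, which enter at complex II, through complex III to oxygen at complex IV. Complexes I, III and IV pump protons across the inner mitochondrial membrane as they do so, and complex V, the ATP synthase, lets the protons back through its membrane part Fo to drive ATP synthesis in its head F1. Most subunits are encoded in the nucleus and some by mitochondrial DNA; those encoded by mitochondrial DNA were not analysed here. Complex IV has isoforms limited to certain tissues, such as those of heart, skeletal muscle and brown fat, and brown fat burns fuel for heat through Ucp1, which lets protons bypass complex V.

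Polyadenylated RNA was sequenced from primary thyroid tumours of a genetically engineered mouse model, 5 with the genotype label Rb1/Trp53/Crebbp and 7 with the label Rb1/Trp53. Both groups therefore carry Rb1 and Trp53 in the label, 2 tumour suppressor genes, and they differ in the label by Crebbp, a histone acetyltransferase. The study was designed to find genes regulated by Crebbp. The sources used here give neither the age of the animals, the alleles, nor the promoter of any Cre and the cells it acts in. Nor do they say that each tumour came from a separate mouse, and the p-values cover only the spread between tumours.

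Gene counts came to 9.14 M to 20.5 M per Rb1/Trp53/Crebbp tumour and to 9.11 M to 57.3 M per Rb1/Trp53 tumour. Crebbp counts themselves were not lower under the Crebbp label, at 53.9 ± 4.19 CPM (SD, n = 5) in Rb1/Trp53/Crebbp tumours and 54.6 ± 20.04 CPM (SD, n = 7) in Rb1/Trp53 tumours (log2 fold change -0.02 ± 0.20 SE, edgeR adjusted p = 0.957). CPM are gene counts scaled to a library of 1 M reads, after TMM scaling between libraries. Counts per gene do not show a lost exon, so they do not check the label. Trp53, which both labels carry, was lower in every Rb1/Trp53/Crebbp tumour than in any Rb1/Trp53 tumour, at 16.1 ± 4.15 CPM (SD, n = 5) in Rb1/Trp53/Crebbp tumours and 28.9 ± 4.70 CPM (SD, n = 7) in Rb1/Trp53 tumours (log2 fold change -0.84 ± 0.17 SE, adjusted p = 0.00918), and Rb1 was not called (log2 fold change 0.37 ± 0.17 SE, adjusted p = 0.137). Calca, which encodes the calcitonin made by C cells of the thyroid, was abundant in every tumour, with 2.36% to 11.6% of gene counts in the Rb1/Trp53/Crebbp group and 8.40% to 19.0% in the Rb1/Trp53 group, while Tg, the thyroglobulin of follicular cells, spanned 26.2 to 5488 CPM in Rb1/Trp53/Crebbp tumours and 1482 to 8998 CPM in Rb1/Trp53 tumours. In these bulk samples, fewer cells of a type and less RNA per cell cannot be told apart.

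The respiratory genes leaned lower in Rb1/Trp53/Crebbp tumours, but almost none passed the test. Of the 88 tested, 80 had a log2 fold change below 0, which is 90.9%, against 51.5% of all 14989 tested genes. Other genes with short transcripts leaned lower too, with 84.3% of those up to 600 bases below 0. The share was 77.9% over 600 to 1000 bases, 64.4% over 1000 to 2000, 50.3% over 2000 to 4000 and 34.7% above that. In these 5 length classes, 26 of 26, 27 of 29, 22 of 25, 5 of 7 and 0 of 1 members were below 0. Only Ndufb10 was called (edgeR quasi-likelihood test, adjusted p under 0.05), and no member was called higher, where 18.3% of all tested genes were called, 9.64% higher and 8.61% lower. An unadjusted p under 0.05 was reached by 16 members, 18.2% of them and all lower, against 35.6% of all genes, of which 17.6% were lower. For no member were the groups' ranges apart, against 6.26% of all genes, 3.62% higher and 2.64% lower. The call rate among respiratory genes thus lay below that of all tested genes, while the share of negative differences lay above it. The number called lower was 18 without Rb1/Trp53 tumour 3, 13 without Rb1/Trp53 tumour 1, 3 without Rb1/Trp53/Crebbp tumour 4, 1 without Rb1/Trp53/Crebbp tumour 5 (Cox8b) and 0 without any 1 of the other 8, and it was 9 with DESeq2 and 54 with limma voom. With library sizes alone as the scaling, the median of all genes moved to 0.18 and that of the members to -0.05, with 56 of 88 below 0.

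By complex, the median log2 fold change was -0.34 for complex I, -0.21 for complex II, -0.34 for complex III, -0.37 for complex IV, -0.20 for complex V and -0.15 for the 9 genes that encode no subunit, beside -0.02 over all tested genes. Summed over its members, complex I took 2356, 2270, 2710, 2780 and 2627 CPM in Rb1/Trp53/Crebbp tumours 1 to 5, against a lowest of 1803, a median of 3578 and a highest of 4312 CPM in Rb1/Trp53 tumours. Complex V took 3060, 3164, 3281, 3290 and 3509 CPM in Rb1/Trp53/Crebbp tumours, against 2386, 3718 and 4223 CPM as the lowest, median and highest of Rb1/Trp53 tumours. In both complexes all Rb1/Trp53/Crebbp tumours lay inside the Rb1/Trp53 range, above Rb1/Trp53 tumours 1 and 3 and below the other 5. The same placing held in complexes II, III and IV, whose sums were 465 ± 11.01, 840.1 ± 58.7 and 1622 ± 146 CPM (SD, n = 5) in Rb1/Trp53/Crebbp tumours and 531 ± 91.0, 1055 ± 327 and 2057 ± 706 CPM (SD, n = 7) in Rb1/Trp53 tumours.

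**Figure D1:**
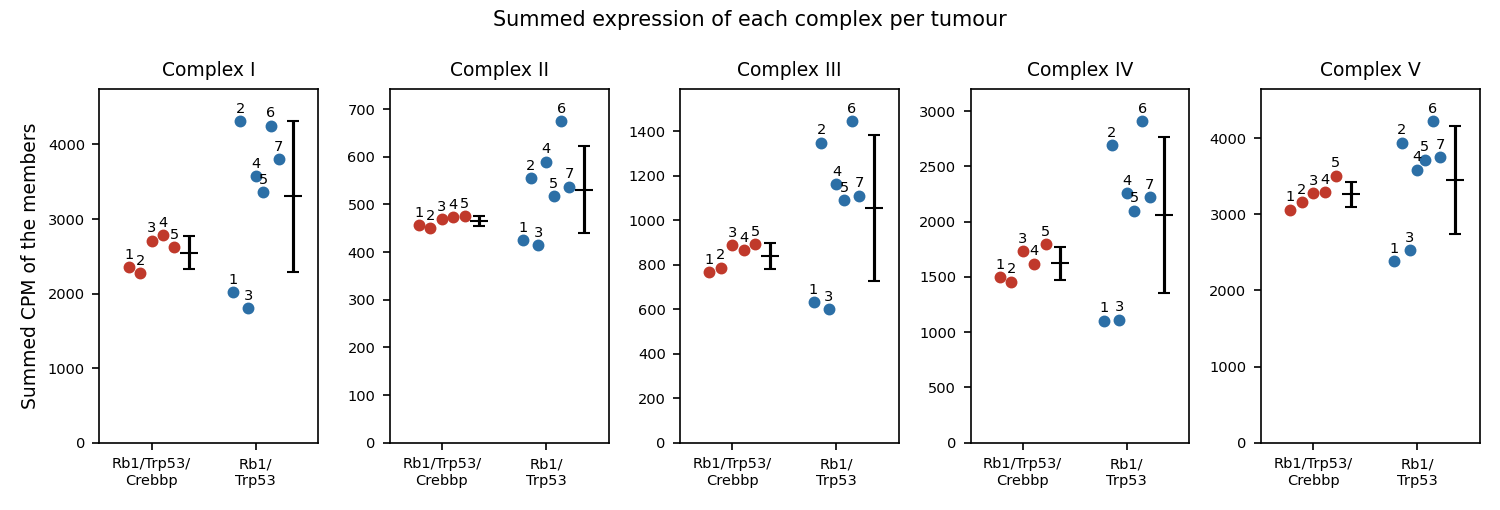
Summed CPM of the nuclear-encoded members of each complex, 1 point per tumour with its tumour number, in 5 Rb1/Trp53/Crebbp tumours (left) and 7 Rb1/Trp53 tumours (right); the bar beside each group is its mean ± SD. In every complex the Rb1/Trp53/Crebbp tumours sit between Rb1/Trp53 tumours 1 and 3, which are low, and the other Rb1/Trp53 tumours, which are high.

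The spread between tumours was wider in the Rb1/Trp53 group. The coefficient of variation between tumours of a group had a median over the 88 members of 10.7% in Rb1/Trp53/Crebbp tumours and 32.02% in Rb1/Trp53 tumours. Over the 6651 tested genes with a mean of at least 32 CPM it was 12.6% in Rb1/Trp53/Crebbp tumours and 17.2% in Rb1/Trp53 tumours. The median of the members thus lay under that of abundant genes in Rb1/Trp53/Crebbp tumours and above it in Rb1/Trp53 tumours. The SD in Rb1/Trp53/Crebbp tumours was below that in Rb1/Trp53 tumours for 86 of 88 members. Among Rb1/Trp53 tumours, numbers 1 and 3 were the 2 lowest for 80 members, and the highest of all 12 tumours was Rb1/Trp53 tumour 2 or 6 for 76 members. Most members thus shared their low and high tumours within the Rb1/Trp53 group. The shares of all tested genes with these orders were not counted, so the pattern is not shown to be particular to the members. The 159 other genes of up to 600 bases were also low in Rb1/Trp53 tumours 1 and 3. Their median deviation from each gene's mean log2 CPM was -0.49 and -0.44 there, and 0.64 and 0.39 in tumours 2 and 6.

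Levels per kilobase of transcript ranked the complexes from V, with a median of 227 CPM per kilobase, through III with 214, IV with 138 and I with 85.5, to II with 72.0. The complex IV median counts 7 tissue-restricted isoforms, at 64.6 CPM per kilobase or less, so the place of complex IV depends on including them. The 11 complex IV subunits found in most tissues ranged from 91.3 to 422 CPM per kilobase. These per-length medians rest on 1 transcript per gene of the GRCm38 annotation, and the spread within a complex was wide, from 125 to 416 CPM per kilobase in complex V and from 2.22 to 307 in complex I. The most abundant members by this measure were Cox6c at 422, Atp5g2 at 416, Atp5b at 410.0, Cox6a1 at 408 and Cox4i1 at 391 CPM per kilobase. Differences between these 5 levels are small beside the spread between tumours.

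Complex I, the entry point of NADH electrons, had all 36 members below 0 on the log2 fold change scale, from -0.87 to -0.05. Ndufb10, a supernumerary subunit of the membrane arm, held 54.8, 35.5, 59.8, 80.7 and 48.5 CPM in Rb1/Trp53/Crebbp tumours 1 to 5, against a lowest of 47.8, a median of 99.1 and a highest of 122 CPM in Rb1/Trp53 tumours. Every Rb1/Trp53/Crebbp tumour was below the Rb1/Trp53 median, but Rb1/Trp53 tumours 1 and 3, at 71.5 and 47.8 CPM, lay among them, so the groups overlapped. Ndufb10 fell 1.67-fold (log2 fold change -0.74 ± 0.24 SE, edgeR adjusted p = 0.0492). That call sat at the threshold: leaving out any 1 of 9 tumours lifted its adjusted p above 0.05, to between 0.0523 and 0.116.

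Ndufa11, a supernumerary subunit of the membrane arm, held 35.0, 26.4, 46.1, 56.9 and 41.0 CPM in Rb1/Trp53/Crebbp tumours, against a lowest of 30.9, a median of 82.7 and a highest of 106 CPM in Rb1/Trp53 tumours. Its log2 fold change of -0.87 ± 0.29 was larger than that of Ndufb10 and just missed the call (edgeR adjusted p = 0.0521). Ndufv3, a small subunit at the NADH-binding tip, held 80.5, 54.0, 86.9, 120.3 and 69.0 CPM in Rb1/Trp53/Crebbp tumours, against a lowest of 54.5, a median of 149 and a highest of 207 CPM in Rb1/Trp53 tumours (log2 fold change -0.78 ± 0.29 SE, adjusted p = 0.0761). In all 3 genes Rb1/Trp53/Crebbp tumour 2 was the lowest tumour of its group and tumour 4 the highest, and Rb1/Trp53 tumour 3 was the lowest of its group.

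Among the core subunits that carry out the chemistry of complex I, 7 were measured and none passed the test, with a median log2 fold change of -0.41. Ndufv1, which binds FMN and takes electrons from NADH, held 121, 108, 116, 109 and 128 CPM in Rb1/Trp53/Crebbp tumours and between 90.9 and 173 CPM, with a median of 134, in Rb1/Trp53 tumours (log2 fold change -0.16 ± 0.15 SE, adjusted p = 0.464). Ndufs1, the largest iron-sulphur subunit, held 85.7, 84.0, 86.1, 83.7 and 95.9 CPM in Rb1/Trp53/Crebbp tumours and between 76.8 and 116 CPM, with a median of 93.6, in Rb1/Trp53 tumours (log2 fold change -0.09 ± 0.10 SE, adjusted p = 0.555). Their levels were close to even in Rb1/Trp53/Crebbp tumours and lay inside the Rb1/Trp53 range. Ndufv2, the partner of Ndufv1 in the same electron-input module, had a log2 fold change of -0.70 ± 0.29 (adjusted p = 0.105), and its difference from Ndufv1 was not tested.

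The 250 bases before the annotated start are shown for Ndufb10, the called gene, and for Ndufa11, the member of complex I with the lowest log2 fold change, chosen also because it holds a match, since these are the sequences in which binding motifs of regulators of respiratory genes were searched. They are RefSeq sequences of build GRCm38.p6, at chr17:24724424-24724673 on the minus strand for Ndufb10 and chr17:56717512-56717761 on the plus strand for Ndufa11. Capitals mark a match to CGCATGCG, the core of the motif of NRF1, a transcription factor known to act on many respiratory genes.
Ndufb10: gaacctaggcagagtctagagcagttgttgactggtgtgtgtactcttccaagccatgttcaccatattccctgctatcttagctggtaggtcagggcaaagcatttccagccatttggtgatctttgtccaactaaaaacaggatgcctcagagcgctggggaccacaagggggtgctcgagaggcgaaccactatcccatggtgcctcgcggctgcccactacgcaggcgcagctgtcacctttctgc
Ndufa11: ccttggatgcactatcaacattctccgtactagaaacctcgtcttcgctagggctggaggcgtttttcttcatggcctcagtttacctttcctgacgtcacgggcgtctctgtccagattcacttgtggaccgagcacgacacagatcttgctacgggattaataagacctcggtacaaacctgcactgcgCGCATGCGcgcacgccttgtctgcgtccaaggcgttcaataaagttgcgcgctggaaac
The NRF1 letters, searched on both strands, were present upstream of Ndufa11. They were present in 8 of the 74 members with a promoter entry, 10.8%, against 1.75% of 27025 genes with an entry. These 27025 genes were not limited to those tested here, and the letters were chosen after a first search of the same members. The letters CCGGAAGT of GABPA, an ETS factor also known for respiratory genes, were present in 3 members, 4.05%, against 3.23% of genes, and no member held both. The median log2 fold change was -0.23 over the 8 tested members with the NRF1 letters, which include Atp5k, Atp5l and Cox6a1, and -0.31 over the 65 without. A match is a run of letters and was not tested for binding.

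Complex II, succinate dehydrogenase, is also an enzyme of the citric acid cycle and has no subunit made in mitochondria. None of its 4 genes passed the test. Sdhc, 1 of the membrane anchors, held 76.5, 58.1, 69.8, 68.8 and 71.3 CPM in Rb1/Trp53/Crebbp tumours, against a lowest of 68.5, a median of 95.4 and a highest of 103 CPM in Rb1/Trp53 tumours (log2 fold change -0.33 ± 0.12 SE, adjusted p = 0.0762). Sdha, the flavoprotein that oxidises succinate, held 224, 177, 213, 254 and 215 CPM in Rb1/Trp53/Crebbp tumours, against 212, 246 and 313 CPM as the lowest, median and highest of Rb1/Trp53 tumours (log2 fold change -0.24 ± 0.12 SE, adjusted p = 0.159). In both genes Rb1/Trp53/Crebbp tumour 2 was below every Rb1/Trp53 tumour and the other tumours overlapped. Sdhb, the iron-sulphur subunit, had a log2 fold change of -0.19 ± 0.21 (adjusted p = 0.561), and Sdhd, the other anchor, one of 0.10 ± 0.16 (adjusted p = 0.674).

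Complex III passes electrons from ubiquinol to cytochrome c. Cyc1, which encodes its core subunit cytochrome c1, has a symbol outside the rule and was counted with the electron carriers. All 8 complex III genes found by the rule had a log2 fold change below 0 and none passed the test. The 5 supernumerary subunits had a median of -0.49 and the 3 core-class genes found by the rule one of -0.21. Uqcrb, a small subunit near the ubiquinone site, held 74.5, 62.6, 80.1, 84.1 and 78.4 CPM in Rb1/Trp53/Crebbp tumours, against a lowest of 54.9, a median of 137 and a highest of 159.7 CPM in Rb1/Trp53 tumours (log2 fold change -0.64 ± 0.24 SE, adjusted p = 0.0809). The small subunits Uqcr10 and Uqcr11 had log2 fold changes of -0.50 ± 0.23 (adjusted p = 0.142) and -0.44 ± 0.26 (adjusted p = 0.237). Uqcrfs1, the Rieske iron-sulphur protein, held 79.6, 89.4, 93.1, 90.7 and 90.5 CPM in Rb1/Trp53/Crebbp tumours, against 62.9, 116 and 139 CPM as the lowest, median and highest of Rb1/Trp53 tumours (log2 fold change -0.24 ± 0.19 SE, adjusted p = 0.382). For Uqcrb and Uqcrfs1 alike, Rb1/Trp53 tumours 1 and 3 were the lowest of their group, within or below the Rb1/Trp53/Crebbp tumours, and the other 5 lay above all of these.

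Complex IV, cytochrome c oxidase, reduces oxygen. Its 11 subunits found in most tissues, here with Ndufa4 counted among them, were all below 0, with a median log2 fold change of -0.37, and none passed the test. Cox4i1, the common form of subunit 4, held 251, 225, 253, 253 and 261 CPM in Rb1/Trp53/Crebbp tumours, against a lowest of 194, a median of 354 and a highest of 426 CPM in Rb1/Trp53 tumours (log2 fold change -0.37 ± 0.19 SE, adjusted p = 0.187). Cox7b, a small subunit, had a log2 fold change of -0.50 ± 0.25 (adjusted p = 0.159). The 5 Rb1/Trp53/Crebbp values of Cox4i1 lay in the gap between Rb1/Trp53 tumours 1 and 3 and the other 5 Rb1/Trp53 tumours.

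Among the tissue-restricted isoforms of complex IV, Cox8b, Cox7a1 and Cox6a2 varied widely between tumours. Cox8b, the isoform of heart, skeletal muscle and brown fat in mice, held 0.378, 1.37, 3.63, 1.69 and 13.8 CPM in Rb1/Trp53/Crebbp tumours 1 to 5, against a lowest of 0.937, a median of 22.5 and a highest of 97.8 CPM in Rb1/Trp53 tumours. Cox7a1, the heart and muscle isoform of subunit 7a, which brown fat also makes, held 1.89, 2.38, 3.21, 1.78 and 9.20 CPM in Rb1/Trp53/Crebbp tumours, against 1.46, 7.67 and 36.5 CPM as the lowest, median and highest of Rb1/Trp53 tumours. Both genes were high in Rb1/Trp53 tumours 2, 4 and 6, lower in 7, and at the level of the Rb1/Trp53/Crebbp tumours in 1, 3 and 5. Summed skeletal muscle markers stood at 5456 CPM in Rb1/Trp53 tumour 6 and 4905 CPM in Rb1/Trp53/Crebbp tumour 5. Both genes were at their group's highest in these tumours. In Rb1/Trp53 tumours 2 and 4 the muscle markers stood at 66.7 and 178 CPM. The part of muscle in these values was not tested. The log2 fold changes of -3.14 ± 1.17 for Cox8b and -1.83 ± 0.83 for Cox7a1 were the lowest of all members, and neither passed the test (adjusted p = 0.0781 and adjusted p = 0.134). Cox8b was called when Rb1/Trp53/Crebbp tumour 5, Rb1/Trp53 tumour 1 or Rb1/Trp53 tumour 3 was left out (adjusted p of 0.0462, 0.0491 and 0.0489), and with DESeq2 (adjusted p = 0.0170) and limma voom (adjusted p = 0.0479). Cox7a1 was called with DESeq2 (adjusted p = 0.0464). Together with Cox6a2 they had the widest SEs of the members.

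The summed level of adipocyte markers was high in Rb1/Trp53 tumours 2, 4, 6 and 7, though single markers differed. Ucp1, the brown fat uncoupler, held 1.26, 6.05, 5.71, 1.07 and 0.869 CPM in Rb1/Trp53/Crebbp tumours, against a lowest of 0.520, a median of 55.0 and a highest of 157 CPM in Rb1/Trp53 tumours, where numbers 2, 4, 6 and 7 stood at 55.0 or more. Of 10 tested adipocyte markers, 9 were called lower, with a median log2 fold change of -3.29, and their summed level spanned 55.0 to 109.9 CPM in Rb1/Trp53/Crebbp tumours and 72.1 to 1603 CPM in Rb1/Trp53 tumours. Fabp4 fell 8.59-fold (log2 fold change -3.10 ± 0.82 SE, adjusted p = 0.0244) and Ucp1 fell 24.0-fold (log2 fold change -4.59 ± 1.35 SE, adjusted p = 0.0361), on ranges that overlapped. Pparg, a master regulator of fat cells, was lower in every Rb1/Trp53/Crebbp tumour, at 1.69 to 3.92 CPM, than in any Rb1/Trp53 tumour, at 4.30 to 22.1 CPM, and among the Rb1/Trp53 tumours it stood higher in tumour 3, at 16.1 CPM, than in tumours 2 and 7, at 12.7 and 6.91 CPM. With Rb1/Trp53 tumours 2, 4, 6 and 7 left out, a choice made after their Ucp1 levels were seen, 22 rather than 80 of the 88 respiratory genes were below 0, their median was 0.12, none was called, and 0.265% of all genes were. The 4 tumours left out were also the 4 highest in the summed level of the members, at 11492 to 13833 CPM, and tumours 1 and 3, the lowest, stayed in. The choice of tumours thus fixes the direction of that shift, and the part of adipocytes in the respiratory gene values was not tested.

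The genes most like Cox8b in log2 CPM over the 12 tumours were Car3 (Pearson r = 0.979), Adipoq, the adipocyte hormone adiponectin (0.964), Pon1 (0.958), Ccbl2 (0.956) and Mme (0.956). Those most like Cox7a1 were Dgat2, an enzyme of triglyceride synthesis (Pearson r = 0.980), Cat (0.965), Cox8b itself (0.955), Aqp7, a glycerol channel (0.954), and Slc10a6 (0.953). The points of these correlations share libraries and 4 tumours carry most of the spread.

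Per transcript length, Cox8b made up 0.340%, 1.28%, 2.80%, 1.48% and 10.9% of the subunit 8 pair Cox8a and Cox8b in Rb1/Trp53/Crebbp tumours, against a lowest of 1.25%, a median of 13.1% and a highest of 36.5% in Rb1/Trp53 tumours. Cox7a1 made up 2.28%, 2.44%, 3.18%, 2.03% and 8.60% of the pair Cox7a1 and Cox7a2 in Rb1/Trp53/Crebbp tumours, against 2.28%, 6.89% and 23.2% as the lowest, median and highest in Rb1/Trp53 tumours. The common isoform was therefore the larger part in every tumour of both groups.

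Cox6a2, the heart and muscle isoform of subunit 6a, followed another pattern. It held 15.3, 6.87, 15.9, 11.6 and 86.2 CPM in Rb1/Trp53/Crebbp tumours 1 to 5, against a lowest of 2.39, a median of 8.62 and a highest of 107 CPM in Rb1/Trp53 tumours. The high tumours were Rb1/Trp53/Crebbp tumour 5 and Rb1/Trp53 tumours 5 and 6, and the groups overlapped fully (log2 fold change -0.11 ± 0.89 SE, adjusted p = 0.942). Ckm, the muscle creatine kinase, was at 600.4 CPM in Rb1/Trp53/Crebbp tumour 5 and at 515 CPM in Rb1/Trp53 tumour 6, but at 3.31 CPM in Rb1/Trp53 tumour 5, where Cox6a2 reached 54.0 CPM. Cox6a2 overlaps Itgad on the opposite strand, and the strand setting of the counts is not known. None of 12 skeletal muscle markers was called, and their summed level spanned 16.2 to 4905 CPM in Rb1/Trp53/Crebbp tumours and 9.68 to 5456 CPM in Rb1/Trp53 tumours. Cox6a2 was 26.7% of the pair Cox6a1 and Cox6a2 per length in Rb1/Trp53/Crebbp tumour 5, 15.8% in Rb1/Trp53 tumour 5 and 22.9% in Rb1/Trp53 tumour 6, and at most 6.20% in the other 9 tumours. Its nearest genes by Pearson r were Myom3 (0.885), Angptl7 (0.872), Ak1 (0.870), 3010001F23Rik (0.863) and Hspb6 (0.863), a list drawn after its values were seen.

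**Figure D2:**
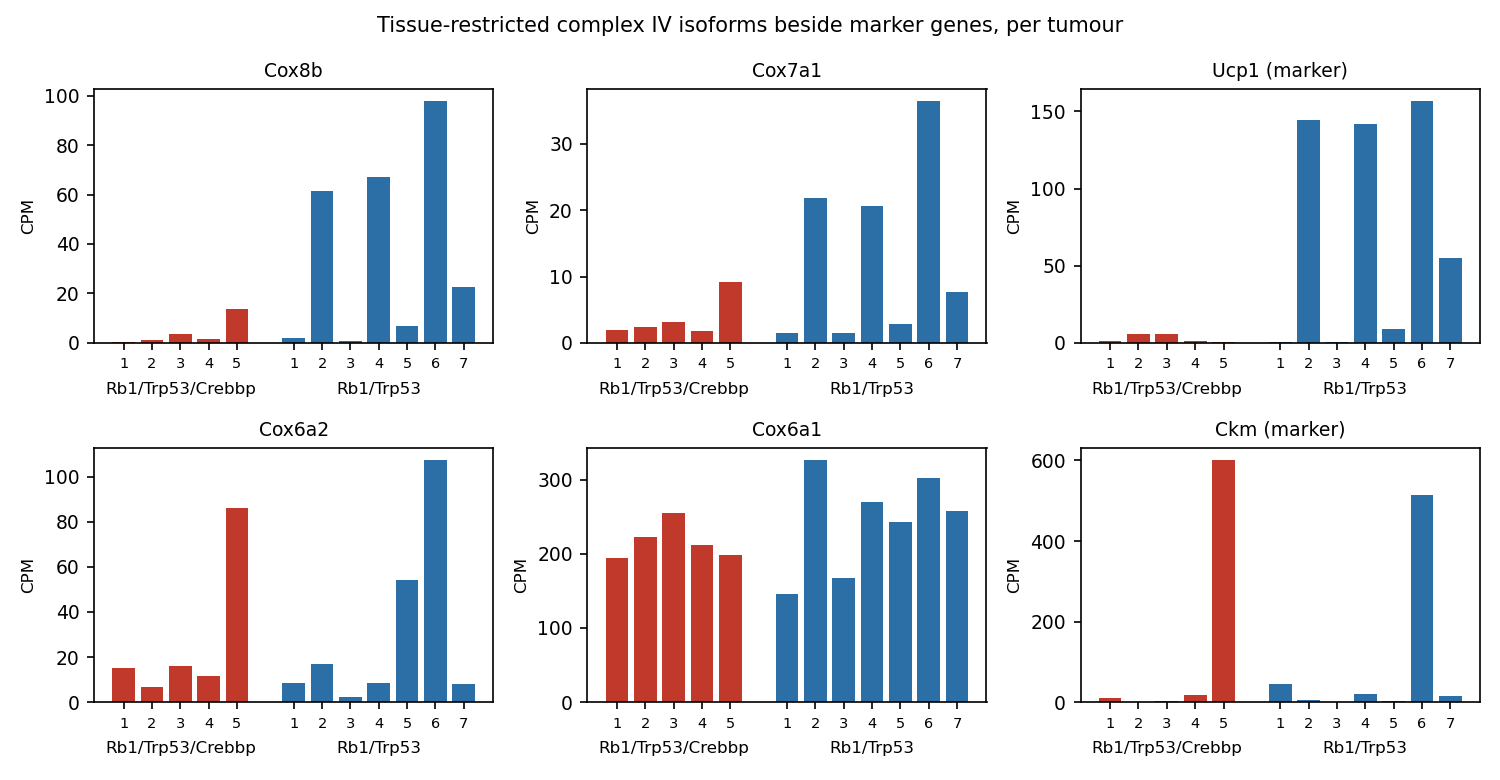
CPM of Cox8b, Cox7a1, Cox6a2 and the common isoform Cox6a1 beside the markers Ucp1 (brown fat) and Ckm (skeletal muscle), 1 bar per tumour, Rb1/Trp53/Crebbp tumours 1 to 5 on the left of each panel and Rb1/Trp53 tumours 1 to 7 on the right. Cox8b, Cox7a1 and Ucp1 are high in Rb1/Trp53 tumours 2, 4 and 6; Cox6a2 is high in Rb1/Trp53/Crebbp tumour 5 and Rb1/Trp53 tumours 5 and 6, while Ckm is low in Rb1/Trp53 tumour 5.

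The other isoforms were scarce. Cox4i2, a second form of subunit 4 known from lung, held 0.252 to 1.19 CPM in Rb1/Trp53/Crebbp tumours and 0.312 to 1.102 CPM in Rb1/Trp53 tumours (log2 fold change 0.18 ± 0.40 SE, adjusted p = 0.770). Cox6b2, the testis form of subunit 6b, held 2.14, 4.67, 4.01, 3.73 and 2.68 CPM in Rb1/Trp53/Crebbp tumours, against 2.60, 4.63 and 7.48 CPM as the lowest, median and highest of Rb1/Trp53 tumours (log2 fold change -0.56 ± 0.28 SE, adjusted p = 0.173). Cox7b2 reached at most 0.355 CPM in Rb1/Trp53/Crebbp tumours and 0.244 CPM in Rb1/Trp53 tumours, and Cox8c had no read in any Rb1/Trp53/Crebbp tumour and 0.0634 CPM in Rb1/Trp53 tumour 7, all near the level of 3 counts, 0.0523 to 0.329 CPM before TMM scaling. The genes most like Cox4i2 reached a Pearson r of 0.867 (Nmd3, then Kcnu1, Phactr3, Ube2k and Tsfm), at levels where counting error is large.

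The upstream 250 bases of Cox8b and Cox7a1, the members with the lowest fold changes, are shown for comparison with those of Ndufa11. They lie at chr7:140900447-140900696 on the minus strand and chr7:30183921-30184170 on the plus strand of GRCm38.p6 (RefSeq), and neither held the letters of NRF1 or GABPA, so no base is in capitals.
Cox8b: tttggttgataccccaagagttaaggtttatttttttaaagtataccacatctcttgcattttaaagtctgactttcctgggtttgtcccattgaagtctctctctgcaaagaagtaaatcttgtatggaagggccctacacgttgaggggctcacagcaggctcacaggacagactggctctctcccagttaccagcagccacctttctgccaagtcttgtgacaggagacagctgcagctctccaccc
Cox7a1: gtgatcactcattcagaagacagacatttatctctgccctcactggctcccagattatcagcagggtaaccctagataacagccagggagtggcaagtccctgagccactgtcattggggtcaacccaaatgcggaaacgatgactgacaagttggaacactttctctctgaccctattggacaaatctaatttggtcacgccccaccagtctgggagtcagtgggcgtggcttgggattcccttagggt
The absence of these letters says nothing of the factors themselves.

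Complex V had its lowest fold changes among small subunits of the membrane part and stalk and its highest in the catalytic head. Over 10 Fo and stalk genes the median log2 fold change was -0.29, and over 5 F1 genes it was -0.07. Atp5k, subunit e of Fo, held 35.9, 36.9, 41.9, 38.5 and 40.8 CPM in Rb1/Trp53/Crebbp tumours, against a lowest of 32.6, a median of 56.4 and a highest of 90.3 CPM in Rb1/Trp53 tumours (log2 fold change -0.55 ± 0.22 SE, adjusted p = 0.0912). Atp5l, subunit g of Fo, held 109, 119, 132, 128 and 139 CPM in Rb1/Trp53/Crebbp tumours, against 101, 192 and 227 CPM as the lowest, median and highest of Rb1/Trp53 tumours (log2 fold change -0.50 ± 0.20 SE, adjusted p = 0.0946). Both were even among Rb1/Trp53/Crebbp tumours, and only Rb1/Trp53 tumours 1 and 3 reached down to them.

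Atp5b, the catalytic beta subunit, held 839, 874, 813, 766 and 931 CPM in Rb1/Trp53/Crebbp tumours, against a lowest of 596, a median of 742 and a highest of 935 CPM in Rb1/Trp53 tumours (log2 fold change 0.18 ± 0.12 SE, adjusted p = 0.298). Atp5a1, the alpha subunit, held 610.3, 617, 609.5, 652 and 671 CPM in Rb1/Trp53/Crebbp tumours, against 514, 626 and 708 CPM as the lowest, median and highest of Rb1/Trp53 tumours (log2 fold change 0.04 ± 0.10 SE, adjusted p = 0.785). Both lay inside the Rb1/Trp53 range and neither passed the test. Atp5d, the delta subunit of the F1 stalk, had a log2 fold change of -0.34 ± 0.15 (adjusted p = 0.121). The c ring of Fo is encoded by 3 genes with different import sequences, and their shares per transcript length were steady: Atp5g2 made up 51.0% ± 3.49 (SD, n = 5) in Rb1/Trp53/Crebbp tumours and 47.7% ± 1.68 (SD, n = 7) in Rb1/Trp53 tumours, and Atp5g3 made up 27.5% ± 0.893 in Rb1/Trp53/Crebbp tumours and 28.4% ± 2.44 in Rb1/Trp53 tumours.

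**Figure D3:**
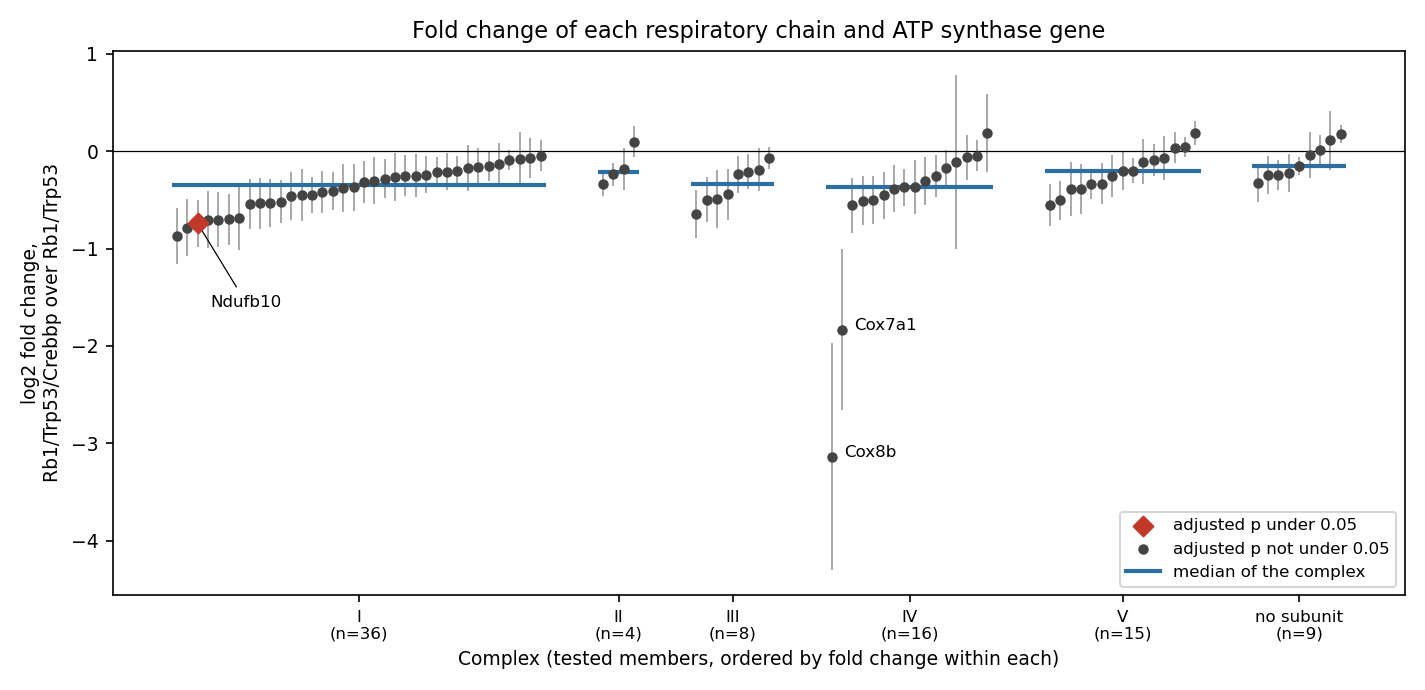
log2 fold change of Rb1/Trp53/Crebbp over Rb1/Trp53 tumours for each of the 88 tested members, ordered within its complex, with its SE; blue lines are medians of a complex and the red diamond is the called gene. Most points lie below 0, Ndufb10 is the called one, and Cox8b and Cox7a1 lie lowest with wide errors.

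Of the 9 genes that share a stem but encode no subunit, none passed the test. The complex I assembly factors Ndufaf1, Ndufaf2, Ndufaf3 and Ndufaf4 had log2 fold changes of -0.24 ± 0.15, -0.04 ± 0.23, -0.22 ± 0.20 and 0.01 ± 0.15, with adjusted p of 0.281, 0.922, 0.429 and 0.973. Cox7a2l, a factor of supercomplex assembly, had one of -0.33 ± 0.20 (adjusted p = 0.247), and Cox4nb, a subunit of an endoplasmic reticulum complex now named Emc8, one of 0.18 ± 0.09 (adjusted p = 0.174). Atp5s and Atp5sl, whose names come from the ATP synthase, had log2 fold changes of -0.24 ± 0.19 (adjusted p = 0.392) and -0.15 ± 0.09 (adjusted p = 0.257). Ndufa4l2, a hypoxia-induced paralogue of Ndufa4, held 2.90, 5.22, 3.73, 2.31 and 5.29 CPM in Rb1/Trp53/Crebbp tumours, against 2.16, 3.23 and 5.83 CPM as the lowest, median and highest of Rb1/Trp53 tumours (log2 fold change 0.11 ± 0.30 SE, adjusted p = 0.815). Within the Rb1/Trp53 group it was highest in tumours 1 and 3, the reverse of most members, and its nearest genes by Pearson r were Epha3 (0.906), Mgea5 (0.867), Arg1 (0.865), Ptk2 (0.864) and Mapk7 (0.861).

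The size of the difference ran with transcript length. The 26 members of up to 600 bases had a median log2 fold change of -0.41, beside -0.52 for the 159 other tested genes of that length, and the 29 members of over 600 and up to 1000 bases one of -0.32, beside -0.28 for 696 others. Members of over 1000 and up to 2000 bases stood at -0.22 (25 genes), beside -0.13 for 3242 others, and members of over 2000 and up to 4000 bases at -0.15 (7 genes), beside -0.00 for 5863 others. Spearman's rho of log2 fold change with length was 0.42 over the 88 members and 0.28 over 14191 other genes, as a description across genes that share libraries and are not independent. Of the genes of up to 600 bases, 0 of 26 members and 14.5% of the 159 others were called lower. The members have a median length of 760.5 bases.

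The pattern was also seen tumour by tumour. Relative to each gene's mean over 12 tumours, the short members had a median deviation in log2 CPM of -0.35, -0.33, -0.04, -0.10 and -0.11 in Rb1/Trp53/Crebbp tumours 1 to 5, and of -0.63, 0.72, -0.75, 0.32, 0.25, 0.63 and 0.41 in Rb1/Trp53 tumours 1 to 7. The 159 other short genes had -0.38, -0.42, -0.08, -0.11 and -0.24 in Rb1/Trp53/Crebbp tumours and -0.49, 0.64, -0.44, 0.34, 0.30, 0.39 and 0.46 in Rb1/Trp53 tumours, the same sign in all 12. Genes over 4000 bases had the opposite sign in all 12. Counts marked as aligned to more than 1 place were taken as a share of all counts, summary rows included. This share was 11.1% to 14.6% in Rb1/Trp53/Crebbp tumours. It was 11.98% and 10.9% in Rb1/Trp53 tumours 1 and 3, and 14.1% to 18.5% in the other Rb1/Trp53 tumours. It was thus low in the same Rb1/Trp53 tumours as the short members, but among Rb1/Trp53/Crebbp tumours it was highest in tumour 1, where the short members were lowest. The part of transcript length and of multiply aligned reads in the differences was not tested. With a length trend taken out of each tumour, a step chosen after seeing the data, 49 of 88 members were below 0 with a median of -0.05, Ndufa11 was called lower (adjusted p = 0.0419), Atp5e and Atp5g2 were called higher (adjusted p = 0.0115 and 0.0268), and Ndufb10 was not called (adjusted p = 0.0586).

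**Figure D4:**
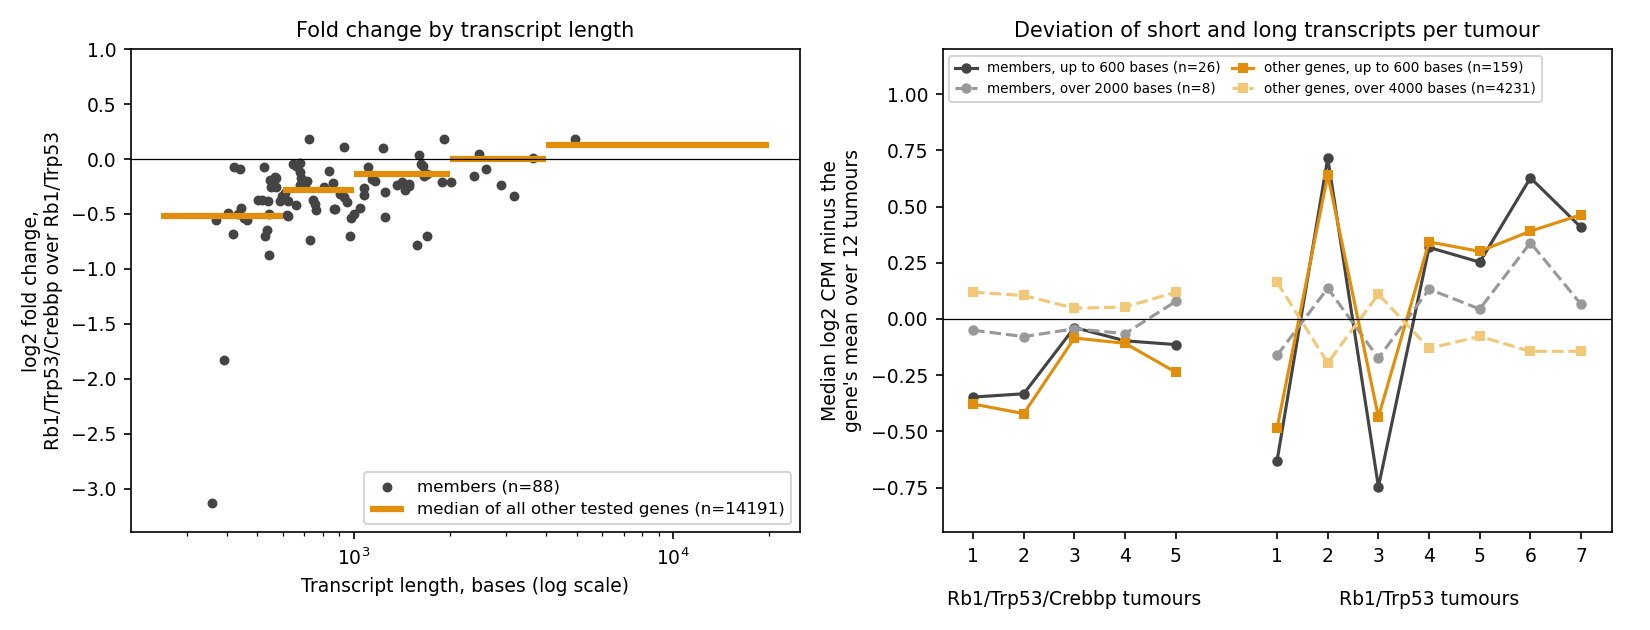
Left, log2 fold change of Rb1/Trp53/Crebbp over Rb1/Trp53 tumours against transcript length (log scale) for the 88 tested members (points), with the median of other tested genes in each length class (bars; rightmost bar, all genes over 4000 bases). Right, median deviation of log2 CPM from the gene's mean over 12 tumours, Rb1/Trp53/Crebbp tumours on the left and Rb1/Trp53 tumours on the right. Short members and other short genes trace the same path over the tumours, lowest in Rb1/Trp53 tumours 1 and 3 and highest in 2.

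Counts of 17 members may be uncertain because a near-identical copy, most often a processed pseudogene, lies elsewhere in the genome, and 30 members overlap another gene on the GRCm38 annotation. Ndufs5, a complex I subunit, was at 1.13, 1.01, 1.13, 1.33 and 1.09 CPM in Rb1/Trp53/Crebbp tumours and 0.625 to 1.78 CPM in Rb1/Trp53 tumours, and 60.8% of its transcript has such a copy. Its 2.22 CPM per kilobase stood far under the complex I median of 85.5. Among named members, Uqcrb, Uqcr11, Atp5l, Atp5g2 and Cox7a2l also have copies, and Ndufa11, Uqcrb, Atp5l, Atp5d, Cox4i1, Cox6a2, Ndufs1 and Atp5a1 are among those that overlap a gene on the opposite strand.

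Genes around the respiratory chain were measured for the same comparison, where 9.64% of all tested genes were called higher and 8.61% lower. Of 15 regulators of respiratory genes, such as Nrf1, Gabpa and Tfam, 0 were called higher and 1 lower, with a median log2 fold change of -0.13. The called gene, Mterfd1, a member of the mitochondrial transcription termination factor family, held 23.3 ± 2.29 CPM (SD, n = 5) in Rb1/Trp53/Crebbp tumours and 28.9 ± 2.67 CPM (SD, n = 7) in Rb1/Trp53 tumours (log2 fold change -0.31 ± 0.10 SE, adjusted p = 0.0436). Ppargc1a, the coactivator PGC-1alpha, was at 5.59 ± 1.72 CPM (SD, n = 5) in Rb1/Trp53/Crebbp tumours and 8.29 ± 3.87 CPM (SD, n = 7) in Rb1/Trp53 tumours and was not called (adjusted p = 0.217).

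Of 15 tested electron carriers and partners outside the symbol rule, none was called and the median was -0.05. That list includes Cyc1, the cytochrome c1 subunit of complex III, so it is not wholly outside the chain's subunits. Of 25 further assembly factors 1 was called in each direction, with a median of -0.09. Over all tested genes, 9.64% were called higher and 8.61% lower. Atpaf1, which assembles F1, rose 1.31-fold and was higher in all 5 Rb1/Trp53/Crebbp tumours, at 18.8, 26.7, 20.9, 20.1 and 23.0 CPM, than in any Rb1/Trp53 tumour, at 15.2 to 17.9 CPM (log2 fold change 0.39 ± 0.10 SE, adjusted p = 0.0244). Foxred1, a complex I assembly factor, fell 1.205-fold (24.2 ± 1.73 CPM in Rb1/Trp53/Crebbp and 29.1 ± 2.31 CPM in Rb1/Trp53 tumours, SD, n = 5 and 7; adjusted p = 0.0469).

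Of 19 genes of pyruvate dehydrogenase and the citric acid cycle, 18 were below 0 with a median log2 fold change of -0.21. Among them 1 was called, in the lower direction, where 8.61% of all tested genes were called lower. Suclg2, the GDP-forming subunit of succinyl-CoA ligase, held 29.4, 31.2, 37.4, 34.1 and 31.0 CPM in Rb1/Trp53/Crebbp tumours, against 28.5, 49.7 and 59.5 CPM as the lowest, median and highest of Rb1/Trp53 tumours, and it fell (log2 fold change -0.59 ± 0.17 SE, adjusted p = 0.0302). Of 22 genes of mitochondrial import, carriers and structure, 15 were above 0 with a median of 0.07. Among these, 1 was called higher and 0 lower, against 9.64% and 8.61% of all tested genes. Timm50, a receptor of the inner membrane import machinery, rose 1.43-fold (74.6 ± 13.3 CPM in Rb1/Trp53/Crebbp and 52.3 ± 8.77 CPM in Rb1/Trp53 tumours, SD, n = 5 and 7; adjusted p = 0.0291). Mitochondrial genes outside the respiratory complexes therefore did not all share their direction.

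Markers of other cells were measured in the same fit, where 8.61% of all tested genes were called lower. Of 14 tested thyroid follicular markers 2 were called lower, the deiodinase Dio1 (log2 fold change -1.78 ± 0.29 SE, adjusted p = 0.00451) and the receptor Tshr (-2.48 ± 0.72 SE, adjusted p = 0.0333), and their summed level spanned 395 to 5969 CPM in Rb1/Trp53/Crebbp tumours and 2045 to 9656 CPM in Rb1/Trp53 tumours. Of 10 pericyte and smooth muscle markers 5 were called lower, of 8 endothelial markers 2, of 7 tested immune markers 1 and, of 10 C cell markers, 1 in each direction. Their part in the respiratory gene values was not tested. Fits that carry a marker score as a covariate are given with the other alternatives.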

How the data were processed

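RNA-seq of 12 tumours was analysed from the authors' deposited tables of raw read counts per gene, 1 per tumour. The build mm9, HTSeq 0.6.1, TopHat2 2.0.12 and bcl2fastq 1.8.2 are named, per the submitters' processing notes. The gene annotation and strand setting are not given here, so reads of a gene and of an overlapping or antisense neighbour cannot be told apart. The 5 summary rows were left out. Counts outside genes were 13.1% to 17.6%, and counts marked as multiply aligned 10.9% to 18.5%, of all counts with these rows included. No pair of libraries of the same group agreed within sampling noise, and pairs across the groups were not checked in this way. The counting floor covers counting error only. The SDs between tumours and the SEs of the fit also take in the spread between tumours of a group.

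Genes were kept by filterByExpr (minimum count 10; 14989 of 23284), scaled by TMM and tested with edgeR 4.0.16 (robust quasi-likelihood, R 4.3.3, all 12 tumours, no covariate), with Benjamini-Hochberg adjustment over all tested genes; the SE is the size of the log2 fold change over the square root of F. Log2 CPM used a prior count of 2. Alternatives used DESeq2 1.42.0 and limma 3.58.1. The script was tested on simulated data. Transcript lengths and copies (BLAST 2.17.0, at least 97% over 100 bases) came from GRCm38, promoters from RefSeq GRCm38.p6; no mm9 coordinates were converted. All 90 members matched a transcript length and 74 a promoter.

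Named were the called members, the 3 smallest p of each complex, 8 catalytic or core subunits, tissue-restricted isoforms, members that are no subunit, and up to 4 called genes of each list; for 4 isoforms the 5 most correlated genes. Cox6a2 likeness, Ndufs5, Ndufv2, Sdhd, Pparg, the levels per kilobase and the isoform shares were added after values were seen. The NRF1 letters were first searched in a longer form with an undefined base, which matched more members and more genes and was likewise more frequent among members; the shorter core was taken after that result was seen. The promoter of Ndufa11 was chosen for display after its match was seen. Members and lists were chosen with earlier results of these data known.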

Additional observations from a re-analysis of the deposited data

Results flagged for a closer look

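In groups of 5 and 7 tumours, 82 sets of values, mostly of named members, were searched for a tumour far from the others. Of these sets, 8 held such a tumour, all among Rb1/Trp53/Crebbp tumours, and chance flags about 1 in 20 groups. Tumour 5 stood above the other 4 in Cox8b (13.8 CPM, others at most 3.63), Cox7a1 (9.20 CPM, others at most 3.21), Cox6a2 (86.2 CPM, others at most 15.9) and Ndufs1 (95.9 CPM, others at most 86.1). The same tumour had the highest Ckm of all 12, at 600.4 CPM. Tumour 1 stood below the other 4 in Uqcrfs1 (79.6 CPM, others at least 89.4) and Ndufaf4 (27.1 CPM, others at least 34.6). Tumour 2 was low in Cox4i1 (224.5 CPM, others at least 251), and tumour 4 was high in Cox7b2 (0.355 CPM, others at most 0.145), a gene near the counting floor.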

How the results depend on the processing

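The number of members called lower depended on the test. It was 1 in the reported fit, 9 with DESeq2, 54 with limma voom and sample weights, 2 with RLE scaling and 0 with library size alone, with no filter on low counts, with the follicular, adipocyte or pericyte score as a covariate, with Rb1/Trp53 tumours 2, 4, 6 and 7 left out, and with Rb1/Trp53/Crebbp tumour 5 and Rb1/Trp53 tumour 6 left out; the last 2 sets and the length trend were chosen after seeing the data. Members called higher were 1 with voom (Cox4nb), 1 with library size alone (Atp5b) and 2 with the length trend removed. Voom called 42.4% of all genes. Library size alone moved the median log2 fold change of all genes to 0.18, and 56 members were then below 0. Leaving out 1 tumour gave 0 to 18 members called lower, 18 without Rb1/Trp53 tumour 3, 13 without tumour 1 and 3 without Rb1/Trp53/Crebbp tumour 4, and 0 to 0 called higher. The cause was not tested.

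All tested genes called higher and lower numbered 1445 and 1291 in the reported fit. They were 3294 and 3063 with voom, 2691 and 757 with library size alone, 317 and 249 with the pericyte score, 5 and 10 with the adipocyte score, 2 and 1 with the follicular score, 23 and 17 without the 4 tumours high in Ucp1, and 396 and 360 without the 2 tumours high in muscle markers. DESeq2 called 1984 higher and 2001 lower. Leaving out 1 tumour gave 557 to 1800 higher and 517 to 1710 lower.

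The tumour numbers are not said to pair the tumours. Same-number correlations of deviations were 0.16, -0.06, -0.05, 0.12 and -0.04, which cannot exclude a shared litter or batch. On tumours 1 to 5 of each group, the fit with the replicate block called 0 members, 244 genes higher and 219 lower, and the fit without it 0 members, 480 higher and 388 lower.

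Median log2 fold changes turned positive with the follicular score (complex I 0.11, II 0.018, III 0.12, IV 0.13, V 0.18, no subunit 0.078), with the adipocyte score (I 0.23, II 0.21, III 0.29, IV 0.38, V 0.23, no subunit 0.068), and without the 4 tumours high in Ucp1 (I 0.10, II 0.084, III 0.14, IV 0.21, V 0.091, no subunit 0.018), as did IV (0.044) and V (0.053) with the length trend removed and the genes that are no subunit (0.042) with library size alone. The 4 tumours high in Ucp1 were also the 4 highest in the summed level of the members. Leaving them out thus fixes the direction of the shift seen without them. With the pericyte score all medians moved further below 0 (I -0.65, II -0.36, III -0.60, IV -0.62, V -0.40, no subunit -0.35). Leaving out 1 tumour kept every median below 0: complex I -0.45 to -0.26, II -0.28 to -0.14, III -0.44 to -0.24, IV -0.48 to -0.28, V -0.29 to -0.17, no subunit -0.20 to -0.12. Ndufb10 changed sign with the follicular score (log2 fold change 0.11, adjusted p = 0.953). Marker scores differ between the genotypes, so a covariate fit cannot tell genotype from cell content. Depth limits Cox4i2, Cox7b2, Cox8c and Ndufs5, near 1 CPM or below.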
